A study of Mus musculus with 12 samples.

Results

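Synaptic vesicle and exocytosis genes encode the proteins that tether, prime, fuse and mark the vesicles from which neurons release transmitter. The 40 members were chosen by gene symbol. All 40 were found among the 55536 genes of the counted annotation and passed the filter on low counts in every comparison. They comprise SNARE proteins and their regulators, synaptotagmins, double C2 (Doc2) proteins, vesicle membrane proteins, complexins, synapsins, active zone proteins and Rab3 GTPases. Bulk RNA was sequenced from cerebellum and cerebral cortex of 1-month-old C57BL/6J mice. WT mice were compared with *Snx14*-KO mice, which lack the sorting nexin SNX14, a protein of contacts between endoplasmic reticulum and lipid droplets, in the whole body because they are homozygous for a CRISPR/Cas9-made 1 bp deletion that shifts the reading frame in exon 14. Each genotype was represented by 3 mice and each mouse by both tissues, which gave 12 libraries with 16672589 to 19887427 counts assigned to genes. The knockout descends from 1 mutant allele, and the tissue was whole, so that neurons, glia and vessels were mixed in each library.

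A synaptic vesicle is first tethered to the active zone by large scaffolds such as Bassoon and Piccolo and by RIM proteins that bind Rab3 on the vesicle. Munc13 proteins then prime it by helping syntaxin on the plasma membrane to assemble with the vesicle SNARE synaptobrevin, complexins bind the assembled SNAREs, and synaptotagmins trigger fusion when calcium binds them. Granule cells make up most neurons of the cerebellum, where the few large Purkinje cells carry the output of its cortex, whereas the neurons of the cortex are mostly glutamatergic pyramidal cells, and many of these proteins come as paralogs that different neuron types use to different extents.

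The start regions of 4 members are shown first. Among members called between WT tissues that have an entry in the RefSeq promoter table, they are the 2 with the largest difference in each direction, and *Mal2* and *Syt5*, whose differences were larger than that of *Syt1*, have no entry. Each sequence was taken from RefSeq on GRCm38.p6 and lies upstream of the first annotated exon, so that it holds promoter and no exon or intron of the gene; the RefSeq start of *Syt2* lies 65 bases before the gene start in GENCODE. Capitals mark a GC box (GGGCGG, shown as CCGCCC where it lies on the other strand) or an E-box (CAGCTG, the same on both strands). The 2 genes that were far lower in cerebellum are *Stx1a* (chr5:135023232-135023481, plus strand) and *Syt1* (chr10:109010983-109011225, minus strand), and the 2 that were higher are *Syt9* (chr7:107370540-107370727, plus strand) and *Syt2* (chr1:134646362-134646611, plus strand).
Stx1a: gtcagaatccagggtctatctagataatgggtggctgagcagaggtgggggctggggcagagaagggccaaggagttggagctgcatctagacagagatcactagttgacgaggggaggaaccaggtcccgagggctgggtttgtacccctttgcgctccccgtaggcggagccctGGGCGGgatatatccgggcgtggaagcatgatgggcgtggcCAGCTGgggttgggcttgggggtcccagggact
Syt1: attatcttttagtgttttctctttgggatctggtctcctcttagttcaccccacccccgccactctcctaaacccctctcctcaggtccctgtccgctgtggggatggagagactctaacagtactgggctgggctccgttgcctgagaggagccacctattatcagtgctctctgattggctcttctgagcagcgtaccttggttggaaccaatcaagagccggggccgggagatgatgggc
Syt9: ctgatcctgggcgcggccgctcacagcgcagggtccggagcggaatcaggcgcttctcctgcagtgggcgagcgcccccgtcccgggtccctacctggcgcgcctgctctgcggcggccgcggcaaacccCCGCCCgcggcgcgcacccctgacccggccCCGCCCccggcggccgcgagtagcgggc
Syt2: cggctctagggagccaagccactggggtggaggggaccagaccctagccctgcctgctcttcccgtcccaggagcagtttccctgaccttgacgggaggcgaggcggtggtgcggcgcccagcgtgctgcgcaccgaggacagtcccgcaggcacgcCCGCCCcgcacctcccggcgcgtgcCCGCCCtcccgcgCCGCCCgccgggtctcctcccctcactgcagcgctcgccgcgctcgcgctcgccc
The printed *Syt1* sequence holds none of the searched motifs, and that of *Stx1a* 1 GC box and 1 E-box. Bases inside the gene as GENCODE annotates it were left out of the printed sequences but not of the counts that follow, in which *Syt1* has 1 GC box and *Syt9* has 3. Of the 40 members, 28 had an entry in the RefSeq table of 27025 genes, and the 250 bases upstream of their starts had a median GC content of 61.6% compared with 52.0% over all genes in the table. For members the RefSeq start nearest the GENCODE gene start was used, and for all genes the first listed start, so the 2 sides differ in rule. Of the 28 member starts, 23 lay within 100 bases of the GENCODE start, and that of *Cplx2* lay 68793 bases away. A GC box was present in 22 of the 28 (78.6%, against 32.9% of all genes), an E-box in 8 (28.6%, against 12.8%) and a TATA box (TATAAA, either strand) in 1 (3.6%, against 13.0%). Among members called higher in WT cerebellum than in WT cortex, 6 had an entry, with a median GC content of 71.4% and a GC box in all 6. The 17 with an entry that were lower had a median of 60.8%, and 12 of them (70.6%) held a GC box. A match describes letters in this window and not a bound site.

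*Snx14* itself checked the genotype labels. Its level, in CPM (counts scaled to the library total, after TMM over the 12 libraries), was 63.9, 63.6 and 67.0 in WT cerebellum and 10.4, 10.9 and 11.2 in *Snx14*-KO cerebellum. In cortex it was 53.6, 55.1 and 59.8 against 8.50, 7.95 and 7.69. Groups did not overlap in either tissue (log2 fold change −2.57, SE 0.0792, adjusted p = 1.69e-06 in cerebellum; −2.80, SE 0.0951, adjusted p = 3.19e-08 in cortex; edgeR's quasi-likelihood test, as for all adjusted p below unless another test is named).

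Before the members are compared, 2 libraries are described. In *Snx14*-KO cerebellum replicates 1 and 3, genes of midbrain neurons were raised, and in replicate 2 they were not. The summed level of 11 midbrain neuron genes, a list added after the values were seen, was 43.0 to 48.8 CPM in WT cerebellum, 226, 38.9 and 237 CPM in *Snx14*-KO cerebellum replicates 1, 2 and 3, 137 to 150 in WT cortex and 123 to 132 in *Snx14*-KO cortex. *Tcf7l2*, a transcription factor of thalamic and midbrain neurons, was at 6.84, 8.08 and 4.72 CPM in WT and at 62.4, 6.56 and 64.1 CPM in *Snx14*-KO cerebellum. The vesicular glutamate transporter *Slc17a6* was at 30.3, 29.5 and 27.2 against 102, 23.3 and 105, and *Lhx9* at 1.45, 0.404 and 1.07 against 19.6, 0.496 and 21.4. Because the 11 genes were listed after these values were seen, their rise is described here and was not tested. The cortical neuron gene *Tbr1*, a transcription factor of deep-layer pyramidal cells, was between 0.325 and 1.21 CPM in all 6 cerebellar libraries and at 160 to 176 CPM in cortex. The 10 cortical excitatory neuron genes together summed to 479 to 589 CPM in WT cerebellum and to 641, 526 and 593 CPM in *Snx14*-KO replicates 1, 2 and 3, against 6745 to 7761 in cortex. Of the 8 of these that passed the count filter in cerebellum, 4 were higher in *Snx14*-KO, 2 of them at an unadjusted p under 0.05, up to a log2 fold change of 4.33 (*Nrgn*). Genes of granule cells summed to 4151 to 4977 CPM in WT cerebellum and to 3443, 4371 and 3590 in *Snx14*-KO replicates 1, 2 and 3. Meningeal fibroblast genes summed to 411 to 440 CPM in *Snx14*-KO cerebellum and 153 to 322 in WT, and microglial genes to 366 in *Snx14*-KO replicate 3 against 132 to 173 in the other 5 cerebellar libraries. All 8 microglial genes were higher in *Snx14*-KO cerebellum (median log2 fold change 0.81), 5 at an unadjusted p under 0.05 (5.78% of all genes were higher at that p). None of the 8 was without overlap. Choroid plexus genes ranged from 81.2 to 7345 CPM over the WT cerebellar libraries and from 959 to 3180 over the *Snx14*-KO ones. In cortex, *Snx14*-KO replicate 2 had the lowest oligodendrocyte sum (5689 CPM, against 7434 to 8415 in the other cortical libraries) and the highest meningeal sum (337, against 81 to 127). All 8 oligodendrocyte genes were lower in *Snx14*-KO than in WT cortex (median log2 fold change −0.27). Of them, 6 were at an unadjusted p under 0.05 (2.26% of all genes were lower at that p) and 5 did not overlap (4.67% of all genes were lower without overlap). The midbrain genes were raised in 2 of the 3 *Snx14*-KO cerebella and in no WT one, and whether the rise belongs to the genotype was not tested. The main results that use *Snx14*-KO cerebellum are also given without replicates 1 and 3. That split was made after the values were seen and leaves 1 *Snx14*-KO mouse.

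The release machinery took a smaller share of the RNA in cerebellum than in cortex, and a few members nearly vanished there. Summed over the 40 members, the level was 8540 to 9403 CPM in WT cerebellum and 15244 to 15597 CPM in WT cortex. Between WT cerebellum and WT cortex, 31 of the 40 members were called (adjusted p under 0.05 with a log2 fold change beyond ±0.50), 8 higher and 23 lower in cerebellum. Over all 18543 genes tested, 40.4% were called, 19% higher and 21.4% lower. The WT libraries of the 2 tissues did not overlap for 36 members (90.0%), 9 higher and 27 lower, compared with 64.4% of all genes (31.6% higher and 32.7% lower). The median log2 fold change of the members was −0.77, compared with 0.02 over all genes. Pan-neuronal genes were also lower, with 6 of 10 called lower and none higher, a median of −0.54, and sums of 3061 to 3409 CPM in WT cerebellum and 5519 to 5738 CPM in WT cortex. Whether the members differed more than neuronal genes in general was not tested. In bulk tissue a smaller number of cells of a type and less RNA per cell cannot be told apart.

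**Figure D1:**
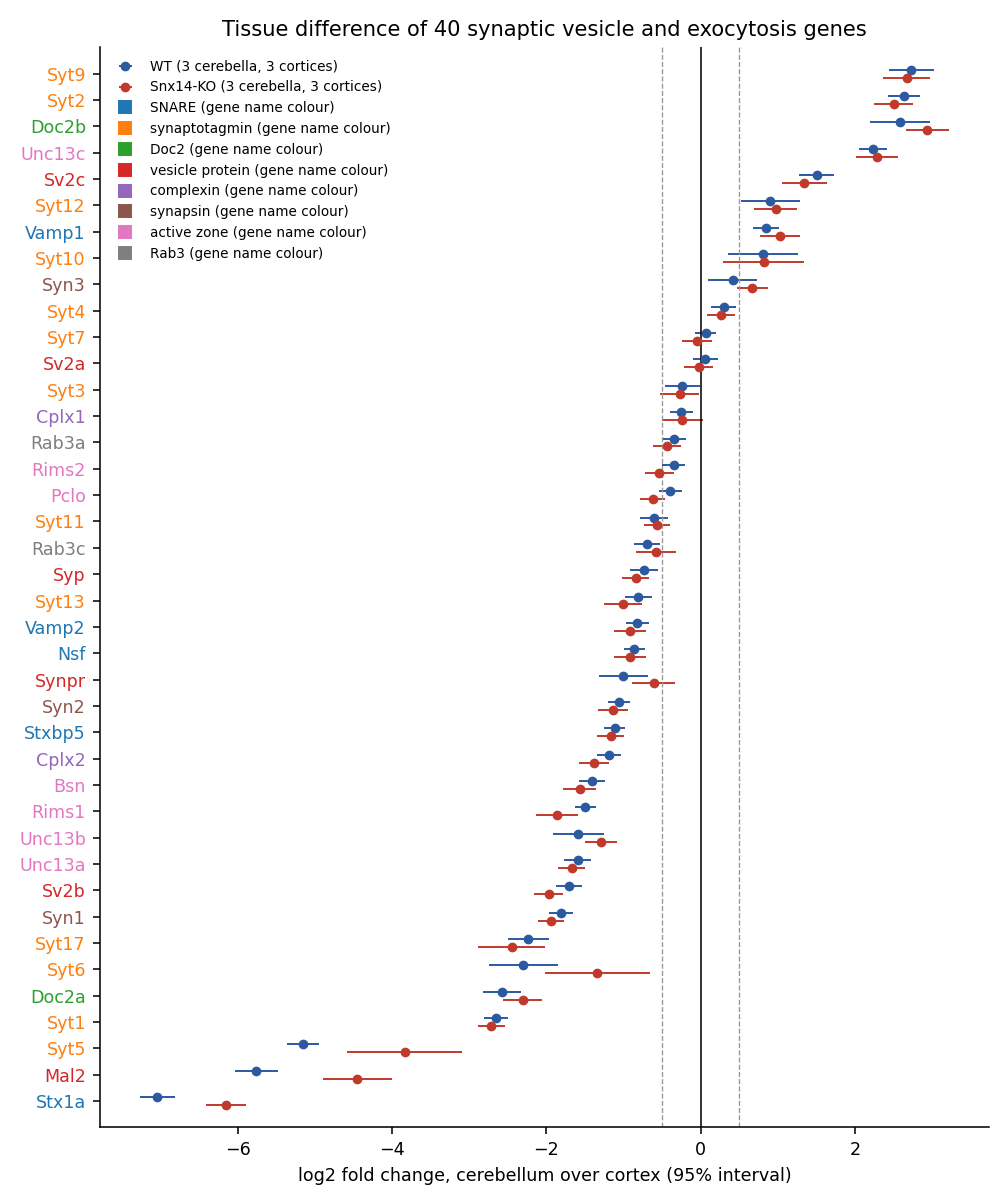
Difference of each of the 40 members between cerebellum and cortex. The horizontal axis gives the log2 fold change (cerebellum over cortex) with its 95% interval in WT (blue) and *Snx14*-KO mice (red), members are ordered by the WT value, name colours give the role, and dashed lines mark ±0.50. WT values run from −7.04 (*Stx1a*) to 2.73 (*Syt9*), and the *Snx14*-KO values of *Stx1a*, *Mal2*, *Syt5* and *Syt6* lie nearer to 0 than the WT values.

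Of the 5 SNARE proteins and regulators, 4 were lower and 1 higher in WT cerebellum. *Stx1a* encodes syntaxin-1A, a plasma membrane SNARE. It was at 2.67, 2.37 and 2.04 CPM in WT cerebellum and at 304, 326 and 308 CPM in WT cortex, so that each cerebellar library held 38 to 48 read pairs and each cortical library 5412 to 6071 (log2 fold change −7.04, SE 0.101, adjusted p = 3.51e-11). Per kilobase of exon, *Stx1a* ranked 9 of 40 in WT cortex (117 ± 4.44, SD, n = 3) and 38 of 40 in WT cerebellum (0.885 CPM per kb). The vesicle SNAREs went in opposite directions. *Vamp1* (synaptobrevin-1) was at 254 to 286 CPM in WT cerebellum and 137 to 160 in WT cortex (log2 fold change 0.85, SE 0.0776, adjusted p = 5.26e-06), and *Vamp2* (synaptobrevin-2) fell by 0.82 on the log2 scale (SE 0.0693, adjusted p = 2.77e-06). *Nsf*, the ATPase that takes spent SNARE complexes apart, fell by 0.86 (SE 0.0614), and *Stxbp5* (tomosyn), an inhibitor of SNARE assembly, by 1.11 (SE 0.0597).

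Among 13 synaptotagmins, 4 were higher and 6 lower in WT cerebellum. The calcium sensors of fast release exchanged places. *Syt1* was at 305, 276 and 280 CPM in WT cerebellum and at 1732, 1867 and 1818 in WT cortex (log2 fold change −2.65, SE 0.0706, adjusted p = 4.76e-10). *Syt2* was at 401, 374 and 375 CPM in WT cerebellum and at 68.4, 53.4 and 63.7 in WT cortex (2.64, SE 0.0926, adjusted p = 3.29e-09). *Syt9*, the other fast calcium sensor of the family, was the member with the largest rise, at 55.2, 57.5 and 47.8 CPM against 9.40, 8.21 and 6.55 (2.73, SE 0.130, adjusted p = 2.95e-08). No cerebellar library overlapped a cortical one for these 3 genes. *Syt5* was at 4.61, 3.69 and 4.46 CPM in WT cerebellum and at 157, 151 and 149 in WT cortex (−5.15, SE 0.0918, adjusted p = 6.95e-11). *Syt6* was lower by 2.30 on the log2 scale (SE 0.200, 4.40 to 6.12 against 18.2 to 29.3 CPM) and *Syt17* by 2.23 (SE 0.119). *Syt10* and *Syt12* rose by 0.80 (SE 0.204) and 0.90 (SE 0.170), and *Syt11* and *Syt13* fell by 0.61 (SE 0.0817) and 0.81 (SE 0.0788). The remaining 3 missed the rule. *Syt7*, a sensor of slow and asynchronous release, had 328 to 346 CPM in WT cerebellum and 312 to 340 in WT cortex (0.07, SE 0.0614, adjusted p = 0.371). *Syt3* had a log2 fold change of −0.24 (adjusted p = 0.0663), and *Syt4*, which lacks a working calcium site in one C2 domain, passed the adjusted p but not the size threshold (0.30).

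The Doc2 proteins, high-affinity calcium sensors of spontaneous and asynchronous release, were split between the tissues. *Doc2b* was at 145, 146 and 121 CPM in WT cerebellum and at 30.9, 19.8 and 18.1 in WT cortex (2.58, SE 0.173, adjusted p = 4.37e-07). *Doc2a* was at 12.6, 9.81 and 9.56 CPM against 59.9, 66.2 and 64.4 (−2.57, SE 0.110, adjusted p = 1.32e-08). The 2 genes had nearly mirror-image fold changes, and no library of one tissue overlapped the other. *Doc2a* shares 39.35% of its exon bases with *Ino80e*, a chromatin remodeler subunit, and pairs in those bases were counted for both genes without regard to strand. *Ino80e* was lower in WT cerebellum by 1.18 (SE 0.0950).

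Of 6 vesicle membrane proteins, 1 was higher and 4 were lower in WT cerebellum. The SV2 glycoproteins, transporter-like proteins of the vesicle membrane, took 3 different courses. *Sv2a* was level between tissues within a narrow interval, at 529, 471 and 465 CPM in WT cerebellum and 469, 441 and 498 in WT cortex (log2 fold change 0.06, 95% confidence interval −0.10 to 0.23). *Sv2b* was at 218, 217 and 205 CPM against 625, 745 and 724 (−1.71, SE 0.0782, adjusted p = 2.29e-08). *Sv2c* was at 110, 96.9 and 103 CPM against 30.5, 38.7 and 40.2 (1.5, SE 0.102, adjusted p = 4.68e-07). Thus *Sv2b* was higher in cortex and *Sv2c* in cerebellum. Per kilobase, the level of *Sv2a* was 1.07 to 1.36 times that of *Sv2b* in cortex and 3.93 to 5.19 times in cerebellum over both genotypes. *Mal2*, a small tetraspan protein of vesicle and transport membranes, was at 4.0, 5.83 and 4.30 CPM in WT cerebellum and 247, 271 and 249 in WT cortex (−5.76, SE 0.124, adjusted p = 1.71e-10). Synaptophysin (*Syp*) fell by 0.74 (SE 0.0828) and its paralog synaptoporin (*Synpr*) by 1.00 (SE 0.142).

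The clamp, scaffold and tether proteins were mostly lower in WT cerebellum. Of the complexins, *Cplx2* was at 630, 549 and 559 CPM against 1332, 1320 and 1309 (−1.19, SE 0.0701, adjusted p = 1.67e-07), whereas *Cplx1* missed the size threshold (−0.25, SE 0.0656). Synapsins, which tie vesicles into the reserve pool, included *Syn1* (−1.81, SE 0.0702) and *Syn2* (−1.06, SE 0.0635), which fell, and *Syn3*, which missed the size threshold (0.42, SE 0.143) and shares 14.11% of its exon bases with *Timp3*, the gene within its introns. At the active zone, *Bsn* fell by 1.41 (SE 0.0736), *Rims1* by 1.49 (SE 0.0639) and the priming factors *Unc13a* by 1.59 (SE 0.0775) and *Unc13b* by 1.59 (SE 0.148). The third Munc13 gene rose. *Unc13c* was at 188, 193 and 183 CPM in WT cerebellum and 44.5, 37.3 and 37.7 in WT cortex (2.24, SE 0.0813, adjusted p = 4.01e-09). *Pclo* (−0.39, SE 0.0669) and *Rims2* (−0.35, SE 0.0696) passed the adjusted p but not the size threshold, as did *Rab3a* (−0.34, SE 0.0701), and *Rab3c* fell by 0.70 (SE 0.0739).

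Levels can be compared between genes only per kilobase of exon. In WT cortex the highest were *Cplx1* (338 ± 13.8 CPM per kb, SD, n = 3), *Cplx2* (268 ± 2.26), *Vamp2* (260 ± 7.81), *Syp* (259 ± 5.09) and *Rab3a* (239 ± 2.86). In WT cerebellum they were *Cplx1* (283 ± 14.2), *Rab3a* (188 ± 15.5), *Syp* (155 ± 18), *Vamp2* (147 ± 10.3) and *Cplx2* (118 ± 9.0), which could not be told apart from *Syt11* (117 ± 13.2). *Vamp2* and *Syp* lay within their spread of each other in both tissues. At the bottom of the cerebellar order were *Unc13b* (0.758 CPM per kb), *Syt6* (0.869), *Stx1a* (0.885), *Mal2* (1.60) and *Syt5* (1.79). *Mal2* and *Syt5* ranked 12 and 17 of 40 in WT cortex (86.6 and 64.1 CPM per kb), and the lowest there were *Syt9* (2.02) and *Unc13b* (2.29).

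In *Snx14*-KO mice the tissue difference had the same outline. Between *Snx14*-KO cerebellum and *Snx14*-KO cortex, 34 members were called, 9 higher and 25 lower (37.9% of all genes were called, 18.2% higher and 19.6% lower). The 3 lowest members were less low than in WT mice. *Stx1a* had a log2 fold change of −6.15 (SE 0.117), *Mal2* of −4.45 (SE 0.198) and *Syt5* of −3.84 (SE 0.335). With *Snx14*-KO cerebellum replicate 2 alone against the 3 *Snx14*-KO cortices, with the lone library assumed to vary as the cortical ones did, 32 members and 33.9% of all genes were called, and the values were −6.05 (SE 0.187), −5.07 (SE 0.186) and −5.24 (SE 0.204), so that *Syt5* was no longer above its WT value. The test of that change between genotypes is given with the knockout results.

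Within each mouse, paralogs were compared as the log2 ratio of their levels per kilobase, so that the scaling of the library cancels. In 10 of 12 pairs the ratio differed between cerebellum and cortex in the same direction in all 6 mice (exact two-sided sign-flip test over 6 mice, p = 0.03125, the smallest the design allows; adjusted p = 0.0375 over the 12 pairs). In all, 3 pairs turned over, so that the paralog that led in one tissue trailed in the other in every mouse.

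The *Syt1*/*Syt2* ratio was 23.2 to 32.7 in cortex and 0.619 to 0.774 in cerebellum, a mean difference of −5.26 ± 0.226 (SD, n = 6 mice) on the log2 scale. The *Doc2a*/*Doc2b* ratio was 3.02 to 8.03 in cortex and 0.105 to 0.233 in cerebellum (−5.23 ± 0.436). The *Unc13a*/*Unc13c* ratio was 5.76 to 8.91 in cortex and 0.422 to 0.540 in cerebellum (−3.90 ± 0.215). In each of these 3 pairs the second named gene was thus the leading one in cerebellum. The other 7 pairs shifted without turning over. *Vamp1*/*Vamp2* shifted by 1.81 ± 0.234, *Sv2a*/*Sv2b* by 1.85 ± 0.155, *Cplx1*/*Cplx2* by 1.04 ± 0.130 and *Syt4*/*Syt11* by 0.87 ± 0.110, all towards the first gene in cerebellum. *Rims1*/*Rims2* shifted by −1.23 ± 0.285, *Bsn*/*Pclo* by −0.98 ± 0.121 and *Syn1*/*Syn2* by −0.78 ± 0.102, all towards the second gene. The difference was 0.03 ± 0.363 for *Syp*/*Synpr* (adjusted p = 0.875, exact sign-flip test) and 0.25 ± 0.299 for *Rab3a*/*Rab3c* (adjusted p = 0.102, exact sign-flip test), and neither passed. Over the 4 mice left without *Snx14*-KO mice 1 and 3, the 10 pairs kept their direction in every mouse, with means from −5.29 for *Doc2a*/*Doc2b* to 1.76 for *Sv2a*/*Sv2b*.

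**Figure D2:**
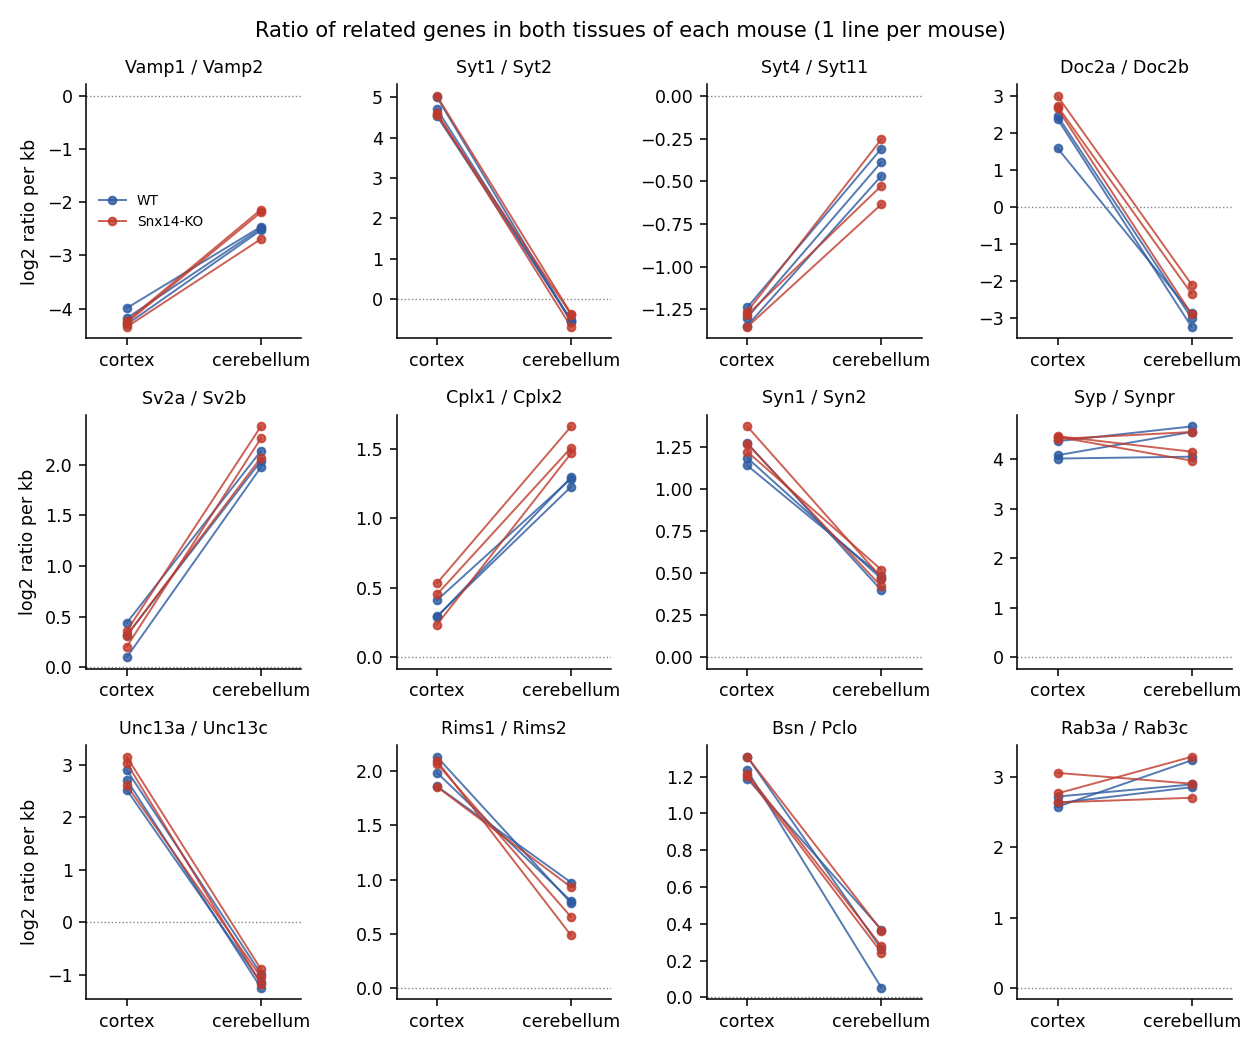
Ratio of paralog levels in both tissues of each mouse, 1 panel per pair. The vertical axis gives the log2 ratio of CPM per kb of the first to the second gene, each line joins the cortex and the cerebellum of 1 mouse (WT blue, *Snx14*-KO red), the dotted line at 0 marks equal levels, and each panel has its own scale. The lines of *Syt1*/*Syt2*, *Doc2a*/*Doc2b* and *Unc13a*/*Unc13c* cross 0 in all 6 mice.

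At an unadjusted p under 0.05, 5 members had higher and 6 had lower values in *Snx14*-KO than in WT cerebellum, but none of the 40 was called by edgeR, where 0.00549% of all 18201 genes tested were called (*Snx14* alone). The smallest adjusted p of a member was 0.168. At an unadjusted p under 0.05 there were 11 members (27.5%, compared with 8.15% of all genes), 5 higher (5.78% of all genes were higher at that p) and 6 lower (2.37%). Libraries of the 2 genotypes did not overlap for 8 members, 2 higher and 6 lower (12.5% of all genes did not overlap, 6.22% higher and 6.32% lower). The median log2 fold change of the members was −0.04, compared with −0.000616 over all genes (−0.0114, with 20 higher and 20 lower, without WT replicate 1, and −0.0674 without *Snx14*-KO replicate 1), and 28 of the 40 had a 95% confidence interval within ±0.50. The 5 higher members were all called lower in WT cerebellum than in WT cortex. The 6 lower ones were genes of the release site and the vesicle with at least 96.9 CPM in every WT cerebellar library.

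The 5 members with higher values were *Stx1a*, *Mal2*, *Syt5*, *Syt6* and *Doc2a*. *Stx1a* went from 2.67, 2.37 and 2.04 CPM in WT to 3.97, 4.96 and 4.98 CPM in *Snx14*-KO cerebellum, with all 3 knockout libraries above all 3 WT libraries (log2 fold change 0.99, SE 0.210, 95% confidence interval 0.51 to 1.46, adjusted p = 0.203). These levels were 0.653% to 0.854% of the WT cortex mean in WT and 1.27% to 1.60% in *Snx14*-KO. *Mal2* went from 4.0, 5.83 and 4.30 to 14.0, 7.55 and 13.2 CPM, also without overlap (1.31, SE 0.251, interval 0.75 to 1.88, adjusted p = 0.168). Its level was 5.48% and 5.15% of the WT cortex mean in *Snx14*-KO replicates 1 and 3, and 2.96% in replicate 2.

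*Syt5* was at 14.8, 4.19 and 14.0 CPM in *Snx14*-KO replicates 1, 2 and 3 against 3.69 to 4.61 in WT (1.38, SE 0.398, interval 0.49 to 2.28, adjusted p = 0.358). *Syt6* was at 11.6, 4.30 and 9.86 CPM against 4.40 to 6.12 (0.78, SE 0.324, adjusted p = 0.568). For both genes replicate 2 lay within or just below the WT values and the other 2 libraries stood well above them. *Doc2a* was at 15.7, 12 and 16.2 CPM against 9.56 to 12.6 (0.47, SE 0.162, adjusted p = 0.445), again with replicate 2 inside the WT range, and *Ino80e*, which shares its exon bases, had a log2 fold change of 0.08.

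Replicates 1 and 3, where *Syt5*, *Syt6*, *Mal2* and *Doc2a* were highest, are the libraries with raised midbrain neuron genes. Whether the members' values are linked to those genes or to the genotype was not tested. *Nrgn*, a calmodulin-binding protein gene of forebrain neurons, was at 6.17, 4.33 and 1.99 CPM in WT and at 122, 9.15 and 117 CPM in *Snx14*-KO cerebellum, and *Camk2a* at 136 to 143 against 206, 136 and 184. When *Snx14*-KO replicate 2 alone was set against the 3 WT libraries, with the lone library assumed to vary as the WT ones did, the log2 fold change was −0.01 for *Syt5*, −0.22 for *Syt6*, 0.18 for *Doc2a* and 0.69 (SE 0.277) for *Mal2*, and it was 1.08 (SE 0.306) for *Stx1a*. No member was called in that comparison, 4 members had an unadjusted p under 0.05 (3.48% of all genes did), and the median over the members was −0.07. Without replicate 2, *Syt5* (1.76, adjusted p = 0.00105), *Syt6* (1.09, adjusted p = 0.0295) and *Mal2* (1.54, adjusted p = 0.00506) were called, alongside 244 genes higher and 10 lower over the whole table (1.36%). DESeq2 called *Mal2* (adjusted p = 0.000366) and *Syt5* (adjusted p = 0.0154) on all 3 libraries, where it called 0.901% of all genes.

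**Figure D3:**
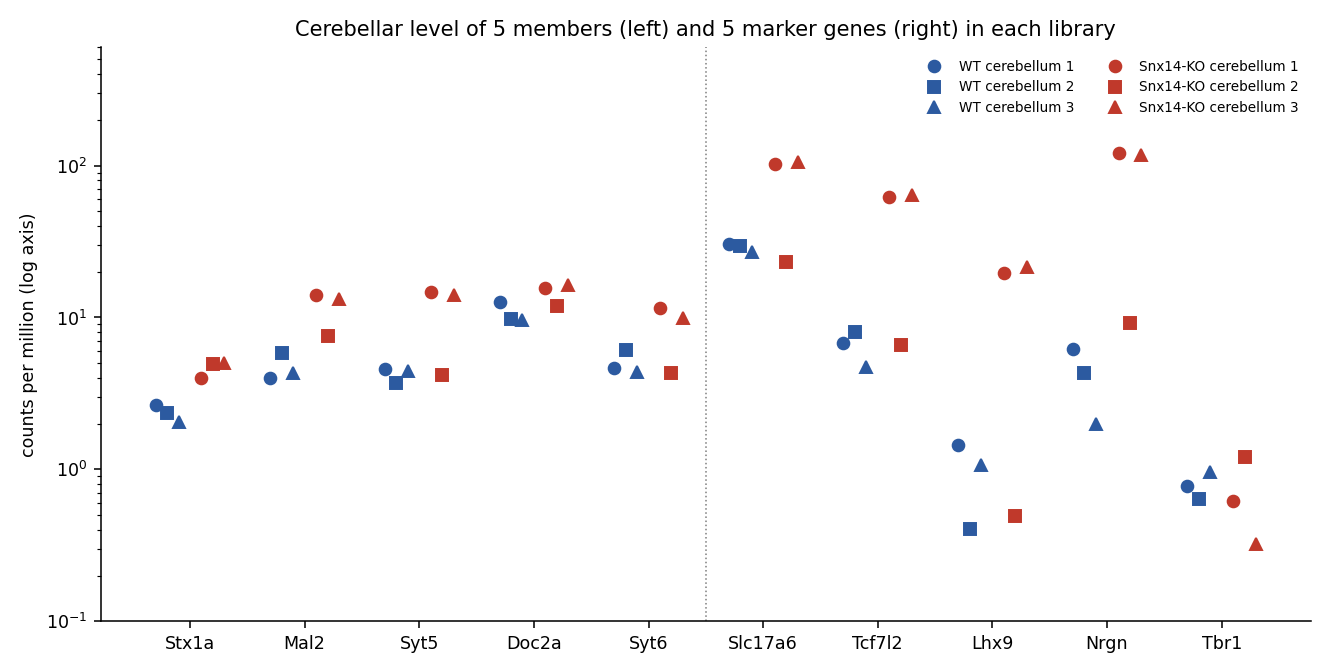
Level of 5 members (left of the dotted line) and 5 marker genes (right) in the 6 cerebellar libraries. The vertical axis gives CPM on a log axis, WT is blue and *Snx14*-KO red, and circles, squares and triangles are replicates 1, 2 and 3. *Syt5*, *Syt6*, *Slc17a6*, *Tcf7l2*, *Lhx9* and *Nrgn* are above WT in *Snx14*-KO replicates 1 and 3 and nearer to it in replicate 2, whereas *Stx1a* is at 3.97, 4.96 and 4.98 CPM in the 3 knockout libraries.

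The 6 members with lower values were *Cplx2*, *Sv2c*, *Rims1*, *Pclo*, *Sv2b* and *Unc13c*, and the libraries of the 2 genotypes were fully separated for 5 of them. *Cplx2* was at 630, 549 and 559 CPM in WT and at 482, 462 and 413 CPM in *Snx14*-KO cerebellum (−0.34, SE 0.0803, interval −0.52 to −0.16, adjusted p = 0.242). DESeq2 gave *Cplx2* an adjusted p of 0.00379, with a size under the threshold. *Rims1* was at 140, 134 and 145 against 110, 126 and 104 CPM (−0.28, SE 0.0834, adjusted p = 0.376). *Pclo* was at 208, 208 and 227 against 169, 187 and 181 (−0.24, SE 0.0739, adjusted p = 0.386). All 3 of these encode cytosolic or scaffold proteins of the release site.

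*Sv2b* was at 218, 217 and 205 CPM in WT and 186, 197 and 170 in *Snx14*-KO cerebellum (−0.19, SE 0.0702, adjusted p = 0.474). *Unc13c* was at 188, 193 and 183 against 158, 172 and 163 (−0.18, SE 0.0652, adjusted p = 0.483). *Sv2c* was at 110, 96.9 and 103 against 97.6, 76.7 and 69.4 (−0.33, SE 0.114, adjusted p = 0.455), with 1 knockout library inside the WT range. *Syt7* was also lower without overlap (266 to 326 against 328 to 346 CPM; −0.15, SE 0.0810, adjusted p = 0.734). With replicate 2 alone the differences were −0.32 (SE 0.116) for *Cplx2* and −0.42 (SE 0.112) for *Sv2c*, close to or beyond those over all 3 libraries, and −0.14 for *Rims1*, −0.19 for *Pclo*, −0.10 for *Sv2b* and −0.12 for *Unc13c*. Granule cell genes had a median log2 fold change of −0.25 in the same comparison, with 0 of 10 higher and 4 lower at an unadjusted p under 0.05, and Purkinje cell genes of −0.11. Pan-neuronal genes had a median of 0.01. Astrocyte genes had a median of 0.27, with 5 of 8 higher at an unadjusted p under 0.05, and their sum was 7403 to 8041 CPM in WT and 8096 to 9100 CPM in *Snx14*-KO cerebellum, without overlap. The part of these cell type differences in the members' values was not tested.

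Other members had small differences. *Sv2a* was at 529, 471 and 465 CPM in WT and 534, 457 and 451 in *Snx14*-KO cerebellum (−0.01, interval −0.20 to 0.18), and *Doc2b* at 145, 146 and 121 against 125, 140 and 109 (−0.12, interval −0.36 to 0.11). Libraries of the 2 genotypes overlapped for both genes, though the lowest *Doc2b* level was in a knockout library and the 2 highest in WT. *Syt1* (−0.01), *Syt2* (−0.07), *Syp* (−0.03), *Rab3a* (−0.02), *Syn1* (−0.01) and *Nsf* (0.00) had log2 fold changes close to 0. *Cplx1* was at 598 to 656 CPM in WT and 508 to 677 in *Snx14*-KO cerebellum. The *Cplx1*/*Cplx2* ratio per kilobase was 2.34, 2.46 and 2.44 in WT and 3.16, 2.85 and 2.77 in *Snx14*-KO cerebellum. The groups did not overlap, and 3 libraries against 3 cannot give an exact p below 0.1.

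**Figure D4:**
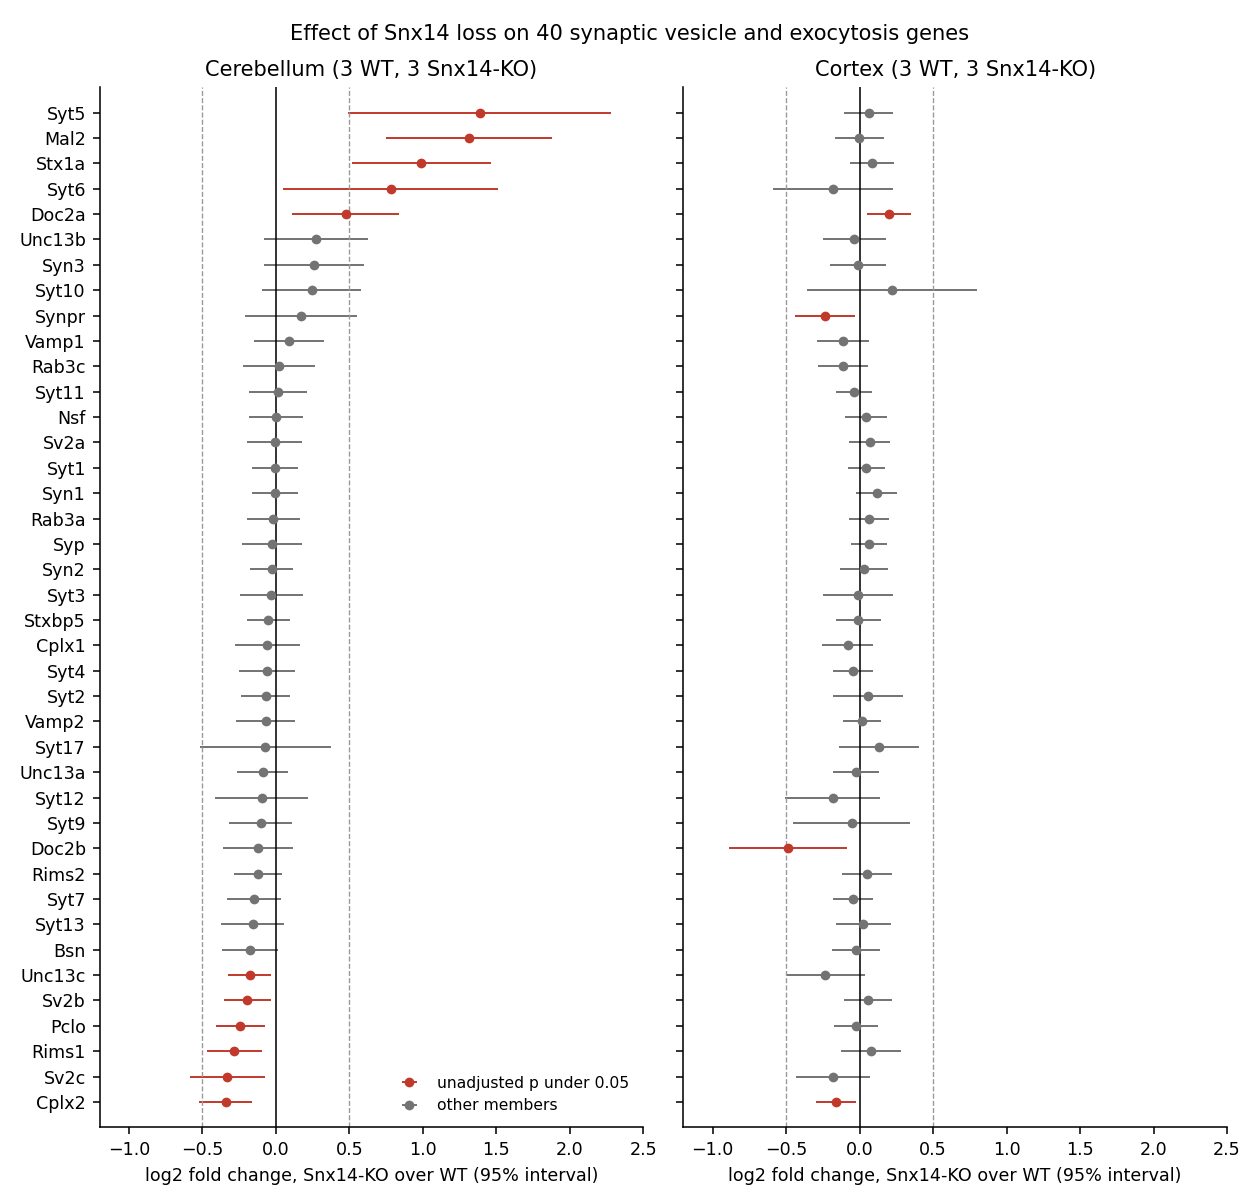
Difference of each of the 40 members between *Snx14*-KO and WT in cerebellum (left) and cortex (right). The horizontal axes give the log2 fold change (*Snx14*-KO over WT) with its 95% interval, members are ordered by the cerebellar value, red marks an unadjusted p under 0.05, and dashed lines mark ±0.50. No member passed the call rule in either tissue, and the widest departures are those of *Syt5* (1.38), *Mal2* (1.31) and *Stx1a* (0.99) in cerebellum.

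In cortex, none of the 40 members was called in *Snx14*-KO against WT mice by edgeR, where 0.00548% of 18255 genes were called, and none by DESeq2, which called 0.0493%. At an unadjusted p under 0.05 there were 4 members (10%), 1 higher and 3 lower, compared with 4.5% of all genes (2.24% higher and 2.26% lower). The count was 2 without WT cortex replicate 1 (4.14% of all genes) or 2 (3.87%) and 1 with all 12 libraries in 1 fit (4.1%). The adjusted p was 0.996 for each of the 4. The median log2 fold change was −0.01, with 18 members higher and 22 lower, and 35 of the 40 had an interval within ±0.50. The 4 members were *Doc2a*, *Doc2b*, *Cplx2* and *Synpr*. The part of the lower oligodendrocyte genes in these values was not tested.

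*Doc2a* was at 59.9, 66.2 and 64.4 CPM in WT and 71.7, 74.6 and 72.7 in *Snx14*-KO cortex, without overlap (0.20, SE 0.0674). *Doc2b* was at 30.9, 19.8 and 18.1 against 16.8, 18.2 and 14.1 (−0.49, SE 0.184, interval −0.89 to −0.08). WT replicate 1 was high for *Doc2b*, and without it the difference was −0.21. *Cplx2* was at 1332, 1320 and 1309 CPM against 1223, 1091 and 1232, without overlap (−0.16, SE 0.0615). *Synpr* was at 141, 153 and 119 against 126, 113 and 113, with overlap (−0.23, SE 0.0934). Groups did not overlap for 3 members in all (7.5%), 2 higher and 1 lower, compared with 9.24% of all genes (4.57% higher and 4.67% lower), the remaining one being *Syn1* (0.12, higher in *Snx14*-KO). *Cplx2* was the 1 member that was lower without overlap in both tissues, as were 81 of 17244 genes (0.47%). In cortex *Stx1a* was at 304 to 326 CPM in WT and 313 to 355 in *Snx14*-KO, *Mal2* at 247 to 271 and 234 to 275, and *Syt5* at 149 to 157 and 145 to 174. *Sv2a* had a log2 fold change of 0.07 (interval −0.07 to 0.21) and *Sv2c* of −0.18 (interval −0.43 to 0.07).

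**Figure D5:**
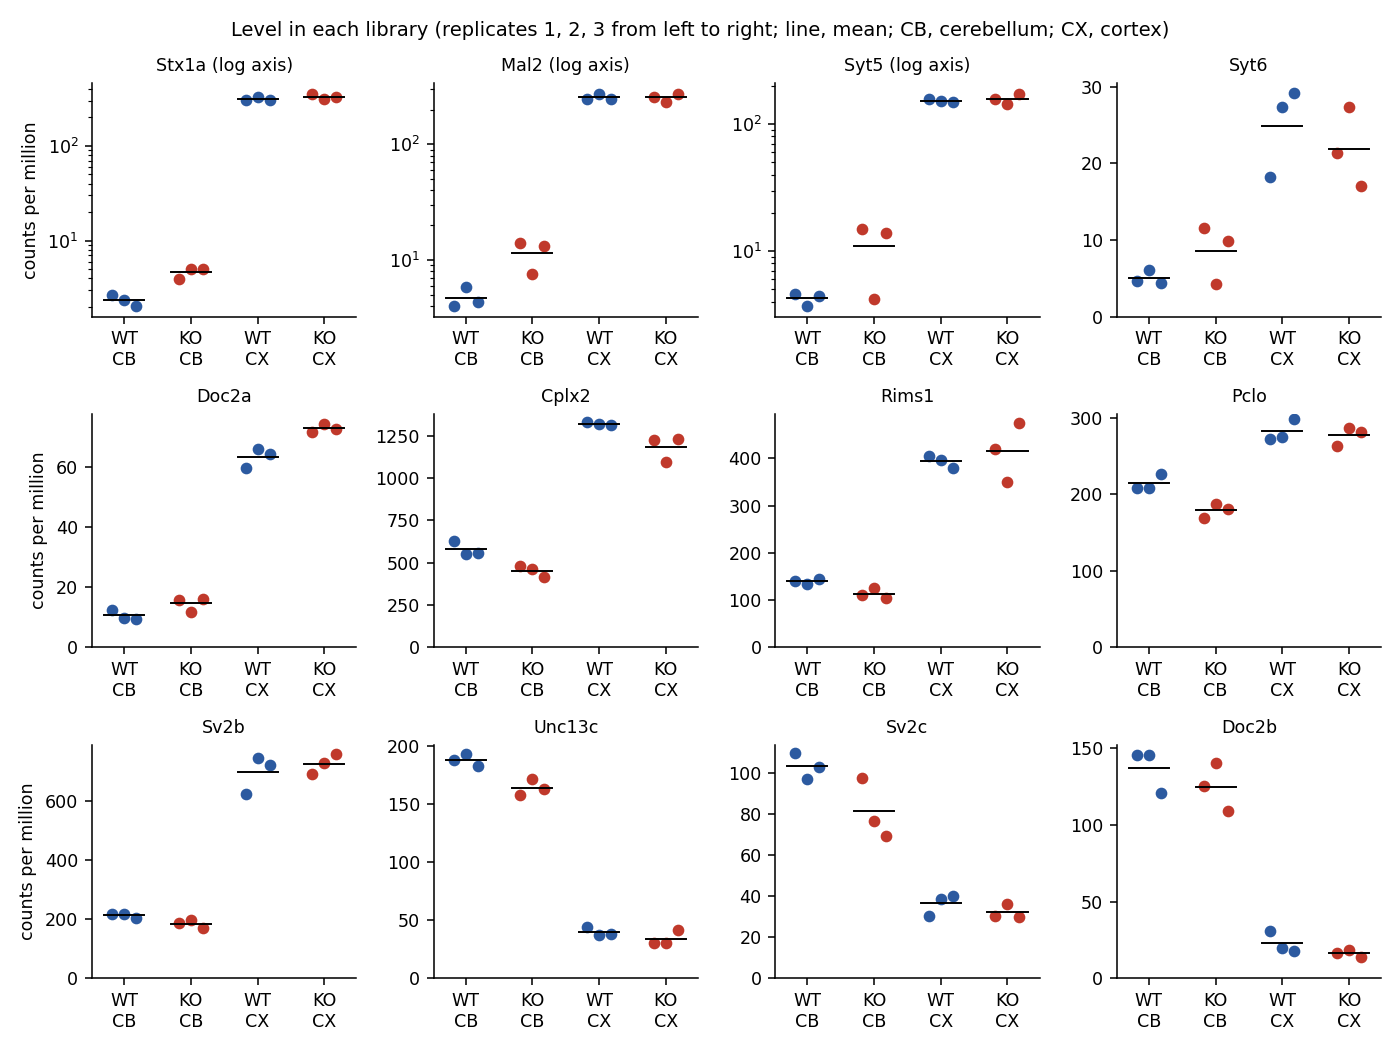
Level of 12 members in each library: the 11 with an unadjusted p under 0.05 in *Snx14*-KO cerebellum, and *Doc2b*. The vertical axes give CPM, on a log axis for *Stx1a*, *Mal2* and *Syt5*, each point is 1 library (WT blue, *Snx14*-KO red) and lines are group means. *Stx1a*, *Mal2* and *Syt5* are at 2.04 to 5.83 CPM in WT cerebellum and at 145 CPM or more in every cortical library, and *Cplx2* is lower without overlap in *Snx14*-KO in both tissues.

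Whether the knockout effect differed between tissues was tested as the interaction of genotype and tissue. No member passed an adjusted p under 0.05 by edgeR, nor did any of the 19380 genes (0%), and 7 members had an unadjusted p under 0.05 (17.5%), 4 with a higher and 3 with a lower value in cerebellum, compared with 5.68% of all genes (3.97% and 1.71%). Without *Snx14*-KO mouse 3, 3 members did (3.97% of all genes). The cerebellar log2 fold change exceeded the cortical one by 0.89 for *Stx1a* (SE 0.155, adjusted p = 0.146) and by 1.31 for *Mal2* (SE 0.250, adjusted p = 0.167). DESeq2 gave the same sizes with adjusted p of 0.00361 for *Stx1a* and 4.79e-05 for *Mal2*, where it called 0.206% of all genes. The other members were *Syt5* (1.31), *Syt6* (0.95), *Rims1* (−0.37), *Sv2b* (−0.27) and *Pclo* (−0.23). With the replicate 2 knockout mouse alone, the difference was 1.07 for *Stx1a*, 0.81 for *Mal2*, 0.04 for *Syt5*, −0.37 for *Syt6*, 0.02 for *Rims1*, −0.18 for *Sv2b* and −0.22 for *Pclo*, and 5 members had an unadjusted p under 0.05 (6.17% of all genes). *Syt5*, *Syt6* and *Rims1* thus had values near 0 or of the other sign with that mouse alone. Without that mouse, 1.26% of all genes passed and 5 members did, namely *Stx1a*, *Mal2*, *Syt5*, *Syt6* and *Rims1*.

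Genes that act beside the members in the vesicle cycle were counted in the same way, and none was called in *Snx14*-KO mice. Of the transporters and pump subunits that fill vesicles, 7 of 10 were lower and 1 was higher in WT cerebellum than in WT cortex (80.0% called, against 40.4% of all genes). Of 14 genes of vesicle endocytosis, 6 were lower (42.9%) and none was higher, against 21.4% of all genes lower and 19% higher. Of 25 docking and priming partners, 14 were lower and 1 was higher (60.0%). In *Snx14*-KO cerebellum, their median log2 fold changes were −0.00161 for filling, 0.00165 for endocytosis and −0.03 for docking and priming. The 1 gene with an unadjusted p under 0.05 (8.15% of all genes had one) was the midbrain gene *Slc17a6* (1.42, SE 0.441, adjusted p = 0.394). In *Snx14*-KO cortex the medians were 0.07, 0.01 and −0.01, again with none called. The gene with an unadjusted p under 0.05 there (4.5% of all genes had one) was *Prrt2*, a presynaptic SNARE-binding protein (0.15).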

How the data were processed

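Total RNA was extracted with TRIzol from cerebellum and cortex dissected on ice, and libraries were made with the NEBNext Ultra RNA kit. After trimming, the authors aligned reads to GRCm38 with STAR 2.7.3a and assigned pairs with featureCounts of Subread 2.0.1, and the deposited values are raw counts per gene and library. Pairs over more than 1 gene counted for all of them, and no strand option was set, so that 15 members share some counted exon bases with a neighbouring gene, 1 of them (*Doc2a*) over 20%.

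Counts were tested with edgeR 4.0.16 (R 4.3.3; filterByExpr, TMM, quasi-likelihood F-test, Benjamini-Hochberg adjustment over all genes tested), with *Snx14*-KO against WT fitted within each tissue, WT cerebellum against WT cortex within WT mice, and the interaction over all 12 libraries. A call needed an adjusted p under 0.05 with a log2 fold change beyond ±0.50, or the adjusted p alone for the interaction. The SE is the log2 fold change over the root of F, and intervals are 95%. Alternatives were DESeq2 1.42.0 (the submitters' processing notes name 1.38.3), no filter, 1 fit of all libraries, a replicate block and leaving out each library. Paralog ratios used log2 of read pairs plus 0.5, with a correction for exon length. No 2 libraries were identical. The tests were run on simulated data first.

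Groups and replicate numbers are those of the labels, by which the same number in both tissues is the same animal. Between genotypes, deviations of same-numbered samples correlated at −0.00804 to 0.0751 in cerebellum and −0.0426 to 0.112 in cortex. Cerebellum and cortex of the same animal correlated at only 0.0767 to 0.113 in WT and 0.0249 to 0.295 in *Snx14*-KO mice. Between tissues, differently numbered samples reached −0.00309 in WT and 0.138 in *Snx14*-KO mice. Because values within an animal were this low, the check cannot decide whether the numbers pair WT with *Snx14*-KO mice. Each group holds 3 mice.

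The members and gene lists were chosen with earlier results of these data known. The midbrain neuron list and the comparisons without *Snx14*-KO replicates 1 and 3 were added after the values were seen. Named are *Sv2a*, *Sv2c* and *Doc2b*, members called or with an unadjusted p under 0.05 in a knockout comparison, the 5 members with the largest fold changes in each direction between WT tissues, the genes of the 12 paralog pairs, and other members as examples of their role. Samples of 1-year-old mice were not analysed here.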

Additional observations from a re-analysis of the deposited data

Results flagged for a closer look

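The effect of the knockout on *Stx1a* and on *Mal2* differed between the tissues by the DESeq2 test of the interaction, though not by edgeR. The difference in effect, cerebellum minus cortex, was 0.89 on the log2 scale for *Stx1a* and 1.31 for *Mal2*, with all 3 *Snx14*-KO cerebellar libraries above all 3 WT ones for both genes. *Mal2* was highest in the 2 *Snx14*-KO cerebellar libraries with raised midbrain neuron genes, at 14.0 and 13.2 CPM against 7.55 in the other. *Stx1a* was at 3.97 and 4.98 CPM in them and at 4.96 in the other. The part of the midbrain genes in the difference of *Mal2* was not tested.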

How the results depend on the processing

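The count of members called in *Snx14*-KO cerebellum was 0 in the main fit. It was 2 with DESeq2 (*Mal2* and *Syt5*, with 0.901% of all genes called) and 3 without a filter on low counts (*Stx1a*, *Mal2* and *Syt5*, with 1.1%). With all 12 libraries in 1 fit it was 2 (*Stx1a* and *Mal2*, with 0.232%). It was 0 to 3 when each library was left out, the 3 arising without *Snx14*-KO replicate 2 (1.36%). For the interaction the count of 0 became 2 with DESeq2 (0.206% of all genes called) and 4 without the filter (1.21%). It was 0 to 5 when each mouse was left out, the 5 again without *Snx14*-KO mouse 2 (1.26%). The median log2 fold change of the members in *Snx14*-KO cortex was −0.0335 to 0.0132 when each library was left out. Values that changed sign were those of *Syp*/*Synpr* (−0.0631 to 0.127 when each mouse was left out), *Sv2a* in cerebellum (−0.0900 to 0.0430 when each library was left out) and, with *Snx14*-KO replicate 2 alone, *Syt6* (−0.22), *Syt5* (−0.0132) and *Doc2b* (0.0441) in cerebellum and *Rims1* (0.0214) and *Syt6* (−0.37) in the interaction. The cause was not tested. With the replicate block the counts of members called were 0 in both knockout comparisons, 31 between WT tissues and 0 in the interaction, the median member log2 fold changes were −0.0414 and −0.00753, and no call changed. Unpaired, an exact permutation test of 6 against 6 libraries also passed 10 paralog pairs. Over the whole table, the genes called in *Snx14*-KO cerebellum were 1 with edgeR, 164 with DESeq2, and 329 higher and 18 lower without the filter. The count between WT tissues stayed within 1.5 times under every alternative run. Members under about 5 CPM in cerebellum rest on few read pairs a library (38 to 48 for *Stx1a* in WT).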
